A study of Bombyx mori with 3 samples.

Results

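The gene p27K of the silkworm Bombyx mori was followed in midgut RNA of larvae that had eaten phoxim, an organophosphate insecticide. It was read by 1 probe, sw03888, of the 23229 gene probes on the array, and the probe was found by its name in the array files. The files give the gene the symbol LOC692422 and the description p27K, and RefSeq assembly ASM3026992v2 names the same gene identifier, 692422, p27K. It was chosen by its measured phoxim and control values on these same arrays, so their difference is described without a test.

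Haemolymph is the insect's open blood, and the fat body, an organ comparable to liver and adipose tissue, secretes most of its soluble proteins. Haemolymph bathes the outer face of the midgut, whose epithelium digests leaf protein and takes up nutrients from the gut lumen. The best protein match of sw03888 is the haemolymph glycoprotein precursor of the tobacco hornworm Manduca sexta, and the files assign no molecular function, process or cell compartment to the probe. RefSeq lists 2 transcripts of p27K, and which of them the probe detects was not determined.

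P50 larvae, from day 3 of the 5th larval instar, ate mulberry leaves after a 1 min dip of the leaves in phoxim at 4 µg/mL, or in water for the controls. Midguts were taken after 24 h, with 30 larvae an experiment. Treated and control midgut RNA, labelled with different dyes, were hybridised together on 3 arrays that the submitters call biological replicates. How many midguts entered each RNA is not stated, and each channel is treated here as 1 larval pool. A midgut epithelium list (trypsins, aminopeptidases, peritrophic proteins, proton pump subunits, lipases and the like) had 68 measured genes. They held 6.58% to 8.38% of the summed intensity of kept probes in every channel. Other tissues were not measured for comparison, so this share does not by itself check the tissue label. No silk gland probe was kept.

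Dye assignments conflict for replicate 2. Its file header gives phoxim as Cy3, whereas the labels give Cy5 for phoxim on every array. Header assignments were used throughout. Log2 ratios so oriented correlated across the 3964 kept probes with r = 0.62 between replicates 1 and 2 and r = 0.26 between replicates 2 and 3, but across all gene probes, most of them dim, with r = -0.47 and r = -0.45. Replicates 1 and 3, whose relation does not depend on the choice, gave r = 0.18 over kept and r = 0.42 over all gene probes. The direction of replicate 2 is therefore not settled by the ratios of gene probes. Values with that array turned are given for p27K levels and ratios, haemocyte and muscle sums, and counts of called probes. All other values from replicate 2 are those of the header dyes only. Each of 8 positive controls (Y1 to Y8) had a sign of Cy5 over Cy3 on replicate 2 opposite to that on both other arrays, while the control named Hex was bright in Cy3 and near 0 in Cy5 on all 3. A probe was kept if its brighter channel reached an intensity of 400, the lower signal mark of the files, on all 3 arrays.

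p27K was a clearly lit spot in every channel. Its intensity in the phoxim channel was 5757, 5601 and 5864 for replicates 1, 2 and 3. The control channel of the same arrays gave 2333, 1306 and 1408. With the header dyes the 3 phoxim pools were nearly level with one another, and the ranges of the groups did not overlap. The control pool of replicate 1 was the brightest of the controls.

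The control intensities were 4.14 to 7.94 times the 95th percentile of the negative control spots of their channel, and the phoxim intensities 16.1 to 67.4 times. That percentile differed by dye. On replicates 1, 2 and 3 it was 199.9, 164.4 and 86.95 in Cy5 and 306.8, 347.85 and 339.95 in Cy3. These multiples are therefore not compared between the groups. The spot reached at most 9.66% of the highest intensity in its channel, far from the top of the scale. It carried the upper signal mark of the files, set at 1500 for the brighter channel, on all arrays.

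**Figure D1:**
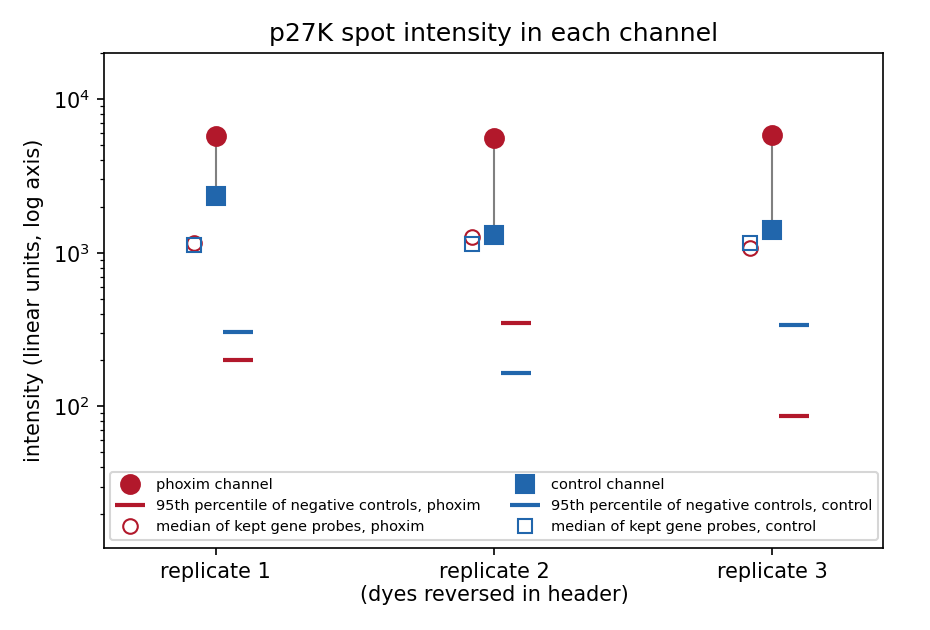
Intensity of the p27K spot (log axis) in the phoxim channel (filled circles) and the control channel (filled squares) of the 3 arrays, with grey lines joining the pair on an array. Open symbols are the medians of kept gene probes and horizontal bars the 95th percentiles of negative controls. The phoxim points lie between 5601 and 5864 and the control points between 1306 and 2333.

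Among all 23229 gene probes of a channel, p27K ranked 508th, 507th and 512th in the phoxim channels of replicates 1, 2 and 3. These places correspond to the top 2.18% to 2.20% of probes and differed by 5 at most. In the controls its ranks were 1095, 1797 and 1719 in the same order. Against the median kept probe of its channel it was 4.40 to 5.46 times as bright with phoxim and 1.15 to 2.08 times in the controls. The control pool of replicate 1 stood above the other control pools on this measure too, and every phoxim pool stood above every control pool.

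The pools were set on a common scale by subtracting, in each channel, the 75th percentile of log2 intensity over kept probes. On that scale the phoxim levels of p27K were 1.09, 0.98 and 1.07 on replicates 1, 2 and 3, with a mean of 1.05 ± 0.06 (SD, n = 3). The control levels were -0.15, -1.11 and -0.93, with a mean of -0.73 ± 0.51 (SD, n = 3). The phoxim pools lay closer together than the control pools. Of the kept probes, 3.73% had a smaller SD between phoxim pools than p27K, and 91.1% had a smaller SD between control pools. The highest control level lay 1.95-fold above the lowest, whereas the phoxim levels spanned 1.08-fold. The SDs between pools were not tested against each other, and the dye of each group changed between arrays. Under the labels' dyes the levels of replicate 2 change places, to -1.11 for phoxim and 0.98 for the control. The closeness of the phoxim pools thus rests on the header assignment.

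The lowest phoxim level of p27K exceeded its highest control level by 1.13 on this log2 scale, which is 2.18-fold. All phoxim levels lay above all control levels at 278 of the 3964 kept probes, or 7.01%. Among these probes p27K had the widest such gap. The next were a chymotrypsinogen probe, sw06092, at 1.09, and sw02159, matched to a Drosophila pseudoobscura protein, at 0.96. These 2 probes were named after their values were seen. With quantile normalization of the channel averages after loess the gap of p27K was 1.14 and again the widest. Under the labels' dyes for replicate 2 the groups overlapped, the lowest phoxim level being -1.11 and the highest control level 0.98.

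The deposited ratio of phoxim over control for p27K was 2.55 on replicate 1, 5.96 on replicate 2 and 4.23 on replicate 3. On the log2 scale these are 1.35, 2.58 and 2.08, with a mean of 2.00 ± 0.62 (SD, n = 3), or 4.01-fold. All arrays gave a higher phoxim value, and the largest ratio was 2.34 times the smallest. In raw intensity the control channel spanned 1.79-fold over the arrays and the phoxim channel 1.05-fold. With replicate 2 turned to the labels' dyes the 3 log2 ratios were 1.35, -2.58 and 2.08 and the mean was 0.29 ± 2.50 (SD, n = 3). Replicates 1 and 3, on which all sources agree, had a mean of 1.72.

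Across arrays the SD of p27K was larger than that of 89.5% of the kept probes, whose median SD was 0.29. The surroundings of the spot showed no such ratio. Its print block held 87 kept probes, p27K included, and those other than p27K had medians of 0.03, 0.05 and 0.02 on replicates 1, 2 and 3. Of the 8 gene spots touching it, 2 were kept, with log2 ratios of -0.22 to 0.75 over the arrays.

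By ratio, p27K ranked 93rd of the 3964 kept probes on replicate 1, 2nd on replicate 2 and 15th on replicate 3. By the mean of the 3 arrays it ranked 11th, and with replicate 2 turned 381st. Among the 200 kept probes nearest to it in brightness, 5 had a higher ratio on replicate 1 and 0 had one on replicates 2 and 3. The log2 ratio was at least 1 on all arrays for 17 of the 3964 kept probes, or 0.429%, p27K among them. In the fit across all kept probes (limma with an intercept, adjusted p under 0.05), 20 probes, or 0.505%, were higher and 7, or 0.177%, lower. p27K is one of the 20, as its selection implies, and nothing is read from this. In either direction 27 probes, or 0.681%, passed. Without replicate 2 the fit called 4 probes higher, and without replicate 3 it called 283.

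**Figure D2:**
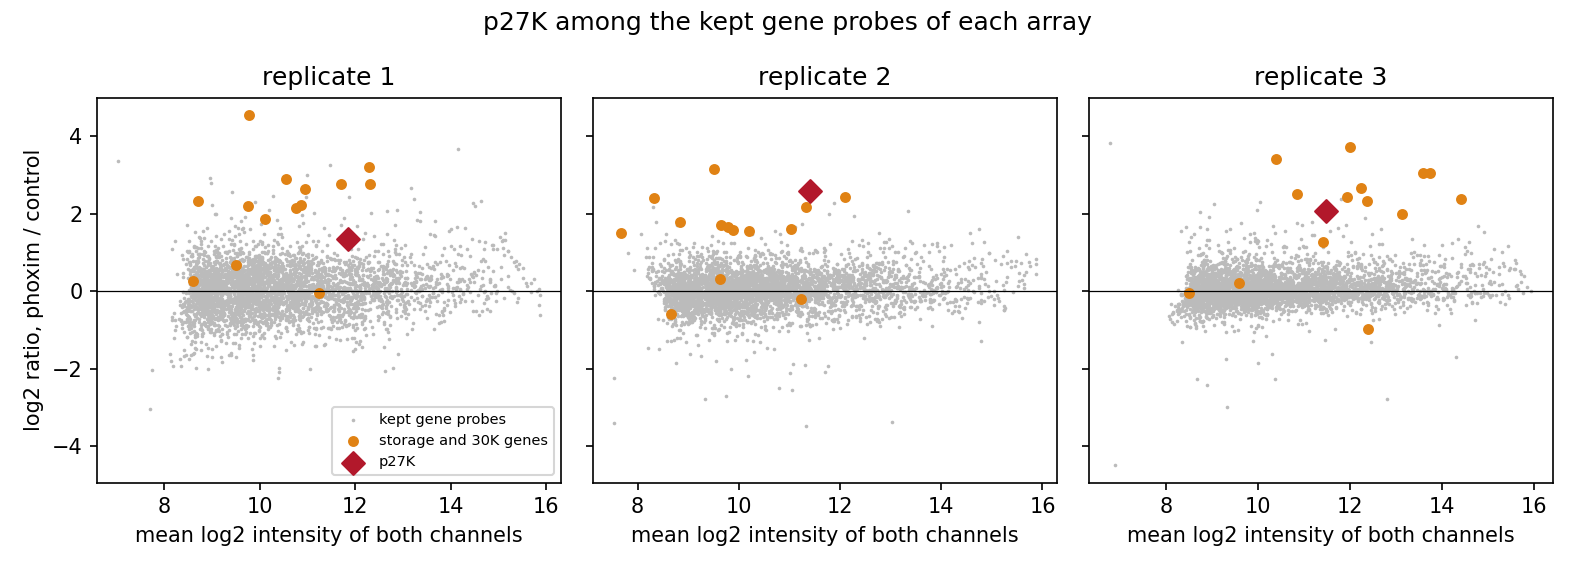
Log2 ratio of phoxim over control against the mean log2 intensity of both channels for the kept gene probes of each array (grey), with storage and 30K genes in orange and p27K as a red diamond. p27K lies at 1.35, 2.58 and 2.08 on replicates 1, 2 and 3, below most storage genes on replicate 1 and above most on replicate 2.

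The deposited ratio is a normalized one, and the plain quotient of the intensities gave p27K smaller values. The log2 quotients were 1.30, 2.10 and 2.06 on replicates 1, 2 and 3. Replicates 1 and 3 moved by little, whereas the deposited value of replicate 2 lay above its quotient, and in the quotients replicates 2 and 3 were nearly equal. After an offset of 50 and loess on the kept probes the values were 1.23, 2.03 and 2.04. Replicate 1 was the lowest array for p27K in each of these treatments.

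The array holds 1 other probe matched to the same Manduca sexta glycoprotein, sw16524. Its intensities were 9, 54 and 0 with phoxim and 45, 0 and 8 in the controls on replicates 1, 2 and 3. All were under the 95th percentile of the negative controls, so this possible relative of p27K was not detected and no ratio is given.

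The other proteins of the haemolymph were taken from a list drawn by name, in which each gene counted through the kept probe with the highest mean intensity over the 6 channels. Of 129 probes of this list, without p27K, 30 were kept, from 27 genes, of which 10 rose and 0 fell at an adjusted p under 0.05 (limma), leaving 17 that did not pass. Over all kept probes 0.505% were called higher and 0.177% lower. At an unadjusted p, 603 of the 3964 kept probes were under 0.05. The median of the 27 mean log2 ratios was 0.40, against 0.03 over all kept probes. All 10 that rose were listed by name or protein match as storage or 30K genes, for the amino acid stores and small lipoproteins that fill larval haemolymph. Among them, sw01299 is matched to a 30K protein, but its gene description begins with polymerase delta interacting protein 3. The probes sw22736 and sw22776 share a best protein match. Of the 14 measured genes of these families 4 did not pass, and the median of the 14 was 2.09. The call of 1 of the 10 depends on the probe: sw22776, which was used, averaged 2.05, while sw22699 of the same gene model averaged -0.03 and did not pass (limma adjusted p = 0.96). Without replicate 2, 3 genes of the haemolymph list passed, with scaling between arrays 1, with both channels above the lower mark 6, and with replicate 2 turned 0 (29 of all kept probes at an unadjusted p under 0.05). It was also 0 with a term for dye orientation (348 probes at an unadjusted p under 0.05) and with all gene probes kept (450).

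The brightest of the 30K probes, sw19103, had phoxim intensities of 11262, 5052 and 34132 and control intensities of 2307, 1301 and 5482 on replicates 1, 2 and 3. Its groups overlapped in raw intensity, since both channels were high on replicate 3, while its log2 ratio was positive on every array and averaged 2.66 ± 0.45 (SD over n = 3 arrays; limma adjusted p = 0.0068). The arylphorin probe sw06703, for a hexameric amino acid store, had phoxim intensities of 15824, 8816 and 45203 and control intensities of 1588, 2163 and 10658. It showed the same high replicate 3 in both channels and averaged 2.67 ± 0.47 (SD over n = 3 arrays; limma adjusted p = 0.0068).

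The remaining haemolymph proteins held 13 measured genes, of which 0 passed in limma, with a median of 0.10. Of 106 probes in this part of the list 15 were kept. Over all kept probes 0.681% passed in either direction, so 0 of 13 is near that share. Apolipophorin III (sw09945), an exchangeable carrier of lipid between fat body and tissues, averaged 0.44 ± 0.27 (SD over n = 3 arrays; limma adjusted p = 0.31). The brightest iron carrier, ferritin sw03108, which stores iron, averaged 0.26 ± 0.46 (SD over n = 3 arrays; limma adjusted p = 0.56). The serpin-2 probe sw18472, for an inhibitor of serine proteases, averaged 0.10 ± 0.54 (SD over n = 3 arrays; limma adjusted p = 0.85). A further protease inhibitor, Sci-sb (sw10501), which blocks chymotrypsin, averaged 1.60 ± 1.02 (SD over n = 3 arrays; limma adjusted p = 0.12). The lysozyme-like probe sw21727 averaged -0.20 ± 0.29 (SD over n = 3 arrays; limma adjusted p = 0.60). No probe of the hormone and pigment carriers was kept.

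p27K and the storage genes were ordered differently over the pools. The 10 storage and 30K genes that rose had median log2 ratios of 2.48, 1.72 and 2.59 on replicates 1, 2 and 3, beside 1.35, 2.58 and 2.08 for p27K. On replicate 1 all 10 lay above p27K, on replicate 2 1 did, and on replicate 3 9 did. Some of the 10 were kept on replicate 2 only through phoxim. All 10 had their highest phoxim level, on the scale of the 75th percentile, on replicate 3, with SDs between phoxim pools of 1.17 to 1.70, where p27K had 0.06.

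The summed intensity of the 14 storage and 30K genes was 66350, 32709 and 192584 in the phoxim pools of replicates 1, 2 and 3, and 13054, 10973 and 44665 in the control pools. It thus varied 5.89-fold between phoxim pools and 4.07-fold between control pools, and was lowest on replicate 2 in both. p27K was lowest in the control pool of replicate 2 but highest in that of replicate 1. The 14 genes are also all the measured genes of the fat body marker list, and 10 of the 27 probes of that list had at least 1 channel at or below 0. Fewer or more cells of a type and more or less RNA per cell cannot be told apart in bulk tissue. Of the 14, 10 rose in the same samples as p27K, and their part in the p27K difference was not tested.

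**Figure D3:**
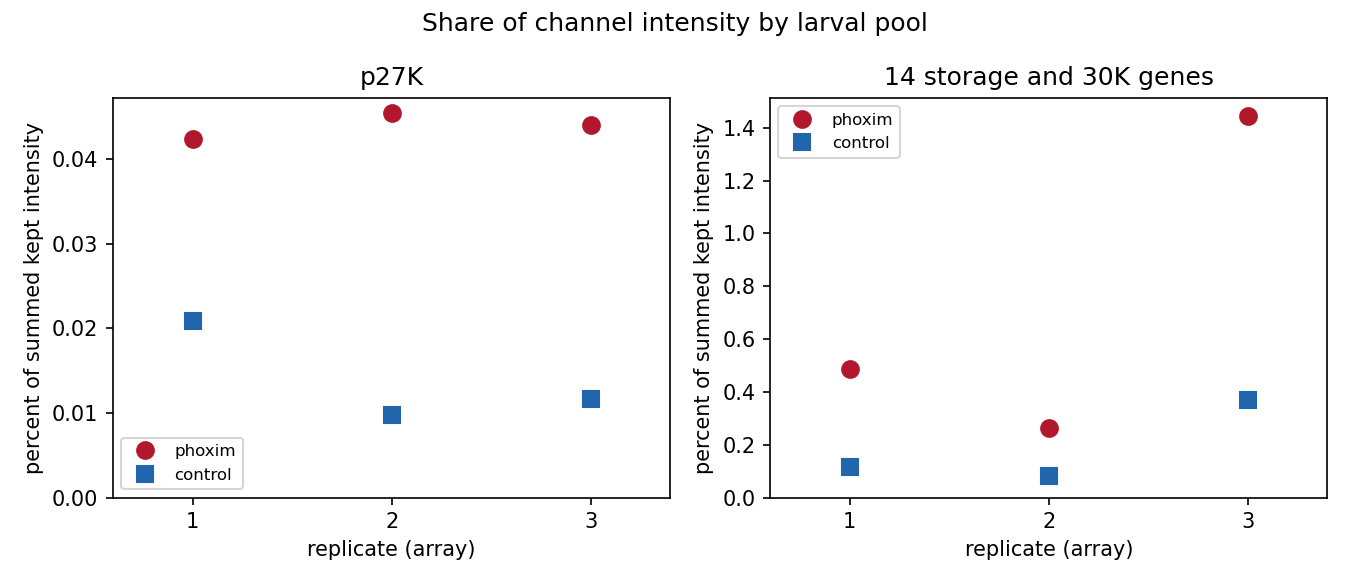
Intensity of p27K (left) and summed intensity of 14 storage and 30K genes (right) as a percent of the summed intensity of all kept probes, for phoxim (circles) and control (squares) pools of each array. p27K takes 0.0424% to 0.0454% in the phoxim pools, while the storage genes range from 0.265% to 1.44%.

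Markers of other tissues that adjoin the midgut were summed in the same way. Of 4 measured haemocyte genes, 1 rose and 3 did not pass (limma), beside 0.505% of all kept probes called higher. The 4 means were all positive, with a median of 0.89, and their summed intensity was 3583 to 4435 with phoxim and 1683 to 2646 in the controls. The gene that rose, sw07651, was kept on replicate 2 only through phoxim, at 685, its control of 158 lying under the mark of 400. The filter on the brighter channel thus had a part in which genes were summed. At 19 of the 36 haemocyte probes at least 1 channel was at or below 0. Of 15 muscle genes 0 passed in limma, with a median of 0.54 and summed intensities of 81581 to 107672 with phoxim and 57574 to 71552 in the controls, and 8 of 38 muscle probes had a channel at or below 0. Of 5 cuticle genes, markers of trachea and epidermis, 0 passed, with a median of 0.12, summed intensities of 16632 to 19364 with phoxim and 9967 to 26094 in the controls, and a channel at or below 0 at 50 of 89 probes. With the header dyes the sums of the haemocyte and muscle genes did not overlap between the groups, while those of the cuticle genes did. With replicate 2 turned, the haemocyte and muscle sums overlapped too. Turned, its phoxim sums are 1683 for haemocyte and 71552 for muscle genes, and its control sums 3583 and 81581. The part of these tissues in the p27K difference was not tested. Of the 68 midgut epithelium genes 4 rose, 1 fell and 63 did not pass (limma), with a median of 0.22. Over all kept probes 0.505% were called higher and 0.177% lower.

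Likeness to p27K was measured first by the Euclidean distance between log2 ratios on the 3 arrays. The nearest kept probe was sw19163, at a distance of 0.60, where the arrays gave log2 ratios of 0.93, 2.18 and 1.91 in order of replicate. The second was sw19839, at 0.81, with 0.80, 1.99 and 1.96. The best matches of both are ecdysteroid glucosyltransferases (EGT) of baculoviruses, enzymes that inactivate moulting hormone by adding a sugar. Neither passed (adjusted p of 0.056 for sw19163 and 0.067 for sw19839, limma), and the control channel of sw19163 was under the 95th percentile of the negative controls on replicates 2 and 3. The third, the haemocyte protease probe sw07651 at 0.86, rose by 1.63 ± 0.25 (SD over n = 3 arrays; limma adjusted p = 0.014), its control being under that percentile on replicate 2. Since these probes were picked for their distance, a shared order over the arrays is no finding. Next came the 30K probes sw19281, at 1.00, and sw22776, at 1.36. Of these, sw19281 is also next above p27K in mean ratio, at 2.03, and Sp1 (sw12337), a sex-specific storage protein, is next below, at 1.76 ± 2.75 (SD over n = 3 arrays; limma adjusted p = 0.38).

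Likeness was measured second by Pearson's r over the 6 channel levels, which are paired by array and so not independent. The highest r was 0.99, for the probe 2th_040, which the files assign to gene model BGIBMGA012786. Its intensities were 7606, 7096 and 8250 with phoxim and 4375, 3266 and 3699 in the controls. The pattern over the channels is what it was picked for, and its mean log2 ratio was 1.07 ± 0.29 (SD over n = 3 arrays; limma adjusted p = 0.067). The next, with r of 0.97 to 0.98, were sw03037, which has no match, sw06831, matched to thyroid receptor interacting protein 6, sw22387, matched to the giant muscle protein projectin, and sw14151, matched to a Drosophila protein. Their mean log2 ratios of 0.59, 0.41, 0.87 and 0.75 did not pass (limma). The 2 measures shared 0 of their 5 probes.

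The files also list expressed sequence tags (ESTs), single sequenced cDNA clones, for each gene with the code of the library each came from. These records are annotation of the array and not measurements of the larvae studied. Of the 55 records of p27K, 22 came from library swc and 18 from swd, together 72.7% (95% exact binomial interval 59.0% to 83.9%, for counting error only). The other records were 3 from swl, 2 from swg, 1 each from swe and swa, and 8 from other clone collections. The sources used here do not say which tissues these codes stand for.

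Libraries swc and swd were a minor source for most genes. Over the 328 genes with at least 20 records the median share from these libraries was 2.80%, and p27K ranked 19th. The 10 storage and 30K genes among them had a median share of 91.5%, and 9 of the 10 had at least 50%. The 9 genes of the midgut epithelium list had shares of 0 to 3.45% and took a median of 47.2% of their records from another library, swb. The share of p27K lay below those of these 9, which were 87.0% (sw19103) to 96.3% (sw06038), and above those of all 9 midgut genes. The 6 other haemolymph genes with enough records had a median share of 59.0%, from 0 to 81.5%, and 4 of them had at least 50%, so p27K lay within their range. This comparison was chosen after values were seen and carries no test.

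Of kept genes other than p27K, 12 had a share of at least 50%, and 8 of these rose. The 12 had a median mean log2 ratio of 2.09, and the 231 kept genes with smaller shares had one of -0.05, with 0 called higher in limma. Over all kept probes 0.505% were called higher, so 0 of 231 is near that share and nothing is read from it. All 8 were storage or 30K genes. The 3 others outside those families were catalase (sw03619), which breaks down hydrogen peroxide, sw09405, which has no protein match, and S-adenosylmethionine synthetase (sw22876), which makes the cell's methyl donor. Their means were -0.09, -0.29 and 0.36. p27K, at 2.00, lay above these 3, so the genes with a high share in these libraries included both high and low ratios.

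**Figure D4:**
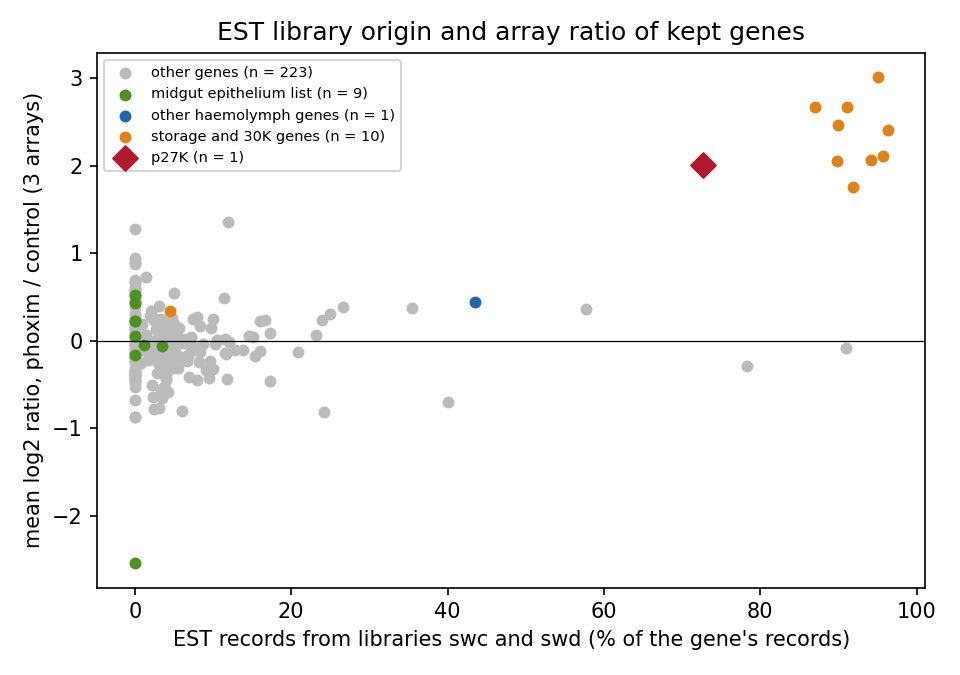
Mean log2 ratio of phoxim over control (3 arrays) against the percent of a gene's EST records that come from libraries swc and swd, for kept genes with at least 20 records. p27K (red diamond) lies at 72.7% and 2.00, to the left of 9 of the 10 storage and 30K genes (orange), while midgut epithelium genes (green) lie at 3.45% or less.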

How the data were processed

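Each deposited array file holds a Cy5 and a Cy3 intensity per spot on a linear scale, with no separate background, and, per the file headers, a phoxim/control ratio. The deposited value table equals the log2 of that ratio to within 4.9e-09, with column medians of 0.040, -0.021 and 0.016; for scanner, software and normalization the status is: not given in the sources used here. Because this ratio was already normalized, it replaced a loess fit. Control spots (677 positive, 382 negative) were left out. Of 23229 gene probes, 4494, 4714 and 4343 were marked on replicates 1, 2 and 3 and 3964 on all. An intercept model of the log2 ratios was fitted (R 4.3.3, limma 3.58.1, eBayes, two-sided, Benjamini-Hochberg over kept probes). The fit was tested on simulated data with independent noise. These had no dye or array effect, so that test does not bear on the dye conflict. The number of arrays limits the precision. Probe, lists and tests were chosen with earlier results of these data known. Named genes are p27K, its relatives, the 5 nearest probes by each measure of likeness, the neighbours in rank, and the brightest member and that with the smallest p of each haemolymph subgroup; others are named where stated. Lists are patterns on names, so membership is by similarity, and cross-hybridisation was not tested. Alternatives covered normalization, scaling, filters, dye direction and single arrays.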

Additional observations from a re-analysis of the deposited data

How the results depend on the processing

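The mean log2 ratio of p27K was 2.00 and stayed between 1.72 and 2.33 with 1 replicate left out. It was 1.80 with median-centred quotients, 1.77 with an offset and loess, 2.03 with scaling between arrays and 1.96 with block medians subtracted. Its rank of 11 was 5 to 16 with 1 replicate left out. With replicate 2 turned the mean was 0.29, the rank 381, and 0 probes and 0 haemolymph genes were called (29 probes at an unadjusted p under 0.05, limma). With all gene probes kept the rank was 131, because dim probes entered, and 0 probes and 0 haemolymph genes were called (450 at an unadjusted p under 0.05, limma). The 27 called probes became 4 to 470 and the 10 called haemolymph genes 3 to 12 with 1 replicate left out, the lowest counts being those without replicate 2 and the highest those without replicate 3. Scaling between arrays left 1 probe and 1 haemolymph gene (600 at an unadjusted p under 0.05), both channels above the lower mark 16 and 6, and a term for dye orientation 0 probes and 0 haemolymph genes (348 at an unadjusted p under 0.05, limma). The causes of these changes were not tested except where stated. The fit of ratios within arrays is itself paired, so no further pairing was tried.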

Other observations

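Probes of 2 matrix proteins, chosen after values were seen and not kept, were detected only in the phoxim channels labelled with Cy5, those of replicates 1 and 3. The collagen type IV probe sw08684, for the network protein of basement membranes, had phoxim intensities of 302, 198 and 591 and control intensities of 130, 19 and 171 on replicates 1, 2 and 3. The probe sw14312 for SPARC, a collagen-binding matrix protein, had phoxim intensities of 466, 293 and 1063 and control intensities of 193, 56 and 313. For both, the phoxim values of replicates 1 and 3 exceeded the 95th percentile that negative controls had in that channel and all other values lay under it, so no ratio is given. That percentile was 199.9 and 86.95 in these Cy5 channels, against 306.8 and 339.95 in the Cy3 control channels of the same arrays. On replicate 3 the control values, 171 and 313, would exceed the phoxim percentile of 86.95, so detection here is not comparable between the groups. A second collagen type IV probe, sw17383, had 22, 51 and 0 with phoxim and 33, 0 and 43 in the controls. All were under the percentile of their channel. Of the EST records, 73.7% of 38 for sw08684 and 50.8% of 63 for sw14312 came from libraries swc and swd.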
